A study of Mus musculus with 16 samples.

Results

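Procollagen is folded in the endoplasmic reticulum and trimmed after secretion, and the 10 genes described here encode proteins of these steps. They are *P4ha1*, *P4ha2*, *P4ha3*, *P4hb*, *Serpinh1*, *Fkbp10*, *Crtap*, *Bmp1*, *Pcolce* and *Adamts2*, found by their gene symbols, and all 10 were among the 49452 genes of the files. RNA was sequenced from sorted tdTomato-positive lung cells of 16 mice, 4 in each of 4 groups. *Acta2-tdT* mice carried Acta2-CreERT2 and a floxed tdTomato allele, and *Pdgfra-tdT* mice carried Pdgfra-CreERT2 and the same reporter, so that tamoxifen switched on the red fluorescent protein in cells using the *Acta2* or the *Pdgfra* promoter. Mice of each line received saline or bleomycin, which injures the lung and is followed by fibrosis, and the left lobe was taken on day 14, at 11 weeks of age. *Acta2-tdT* mice ate food with 400 mg/kg tamoxifen from 5 days after instillation, and *Pdgfra-tdT* mice had 5 injections of 3 mg at 6 weeks of age. The line and the way of labelling therefore cannot be told apart, and the sorted cells are those carrying the label, whatever they expressed on day 14. Libraries were made with SmartSeq2, a protocol that amplifies full-length cDNA from few cells, and the values are FPKM, fragments per kilobase of transcript per 1000000 mapped fragments.

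A procollagen chain is hydroxylated on proline by prolyl 4-hydroxylase, a complex of alpha subunits, which hold the active site, and of the beta subunit protein disulfide isomerase. Hydroxyproline keeps the triple helix stable, and chaperones and prolyl isomerases of the endoplasmic reticulum keep the chains from misfolding before they leave the cell. Outside the cell, proteinases remove the propeptides at both ends, and the trimmed molecules assemble into fibrils. Mesenchymal cells of the lung make most of the fibrillar collagen of fibrotic tissue.

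The mice differed in how much FPKM lay on nuclear protein-coding genes. The sum had a median of 42700 (35602 to 57788) in saline-treated and 376953 (231058 to 463127) in bleomycin-treated *Acta2-tdT* mice, and of 33069 (29964 to 59840) and 46107 (28512 to 137952) in the *Pdgfra-tdT* groups. Each result is therefore given with the FPKM as deposited and with the FPKM of each mouse scaled so that these genes summed to 74406. The 1412 olfactory and vomeronasal receptor genes, taken as a set of mostly low values, had a median of 0.321 to 0.329 FPKM in saline-treated *Acta2-tdT* mice, 0.0129 to 0.120 with bleomycin, and 0.0919 to 0.333 in *Pdgfra-tdT* mice. In *Acta2-tdT* mice the 6 smooth muscle markers summed to at least 169 FPKM, and in *Pdgfra-tdT* mice to at most 25.2. The 6 fibroblast markers were low in *Pdgfra-tdT* cells, with sums of 7.0 to 55.1 FPKM with saline and 2.49 to 145 with bleomycin, where *Tcf21* was listed at 0 in every mouse. *Pdgfra* itself measured 2.79 ± 0.797 FPKM (SD, n = 4) in saline-treated and 1.70 ± 0.658 FPKM (SD, n = 4) in bleomycin-treated mice of that line, from the gene or a transgene, which were not told apart. In *Acta2-tdT* mice it measured 0.386 ± 0.125 FPKM (SD, n = 4) with saline and 7.87 ± 3.94 FPKM (SD, n = 4) with bleomycin, so that with bleomycin the marker of the *Pdgfra-tdT* line was higher in the *Acta2-tdT* line as deposited, and measured 1.53 there against 2.36 after scaling. Saline mouse 3 and bleomycin mouse 5 of the *Pdgfra-tdT* line stood apart, with 327 and 897 FPKM summed over 6 endothelial markers against 3.68 to 91.5 in the other 6 mice of the line. The fibroblast marker sums of these mice were also the highest of their groups, at 55.1 and 145 FPKM, or 68.5 and 78.3 scaled.

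The upstream sequence of 8 of the 10 genes was in the RefSeq promoter table of build GRCm38.p6, as 250 bases before the annotated start, and that of 4 is shown because they hold from 0 to 5 GC boxes, the range over the 8, and include the 1 window with a CCAAT box and the 1 with a TATA box. Capitals mark 3 short motifs. The GC box was searched as GGGCGG, the CCAAT box as CCAAT and the TATA box as TATAAA, each on both strands, so that a match on the other strand shows the reverse complement. Overlapping matches of a box were counted separately. The *P4ha3* window lies at chr7:100285270-100285519 on the plus strand, that of *P4hb* at chr11:120573254-120573503, that of *Serpinh1* at chr7:99353240-99353489 and that of *Crtap* at chr9:114390713-114390962, these last 3 on the minus strand.
P4ha3: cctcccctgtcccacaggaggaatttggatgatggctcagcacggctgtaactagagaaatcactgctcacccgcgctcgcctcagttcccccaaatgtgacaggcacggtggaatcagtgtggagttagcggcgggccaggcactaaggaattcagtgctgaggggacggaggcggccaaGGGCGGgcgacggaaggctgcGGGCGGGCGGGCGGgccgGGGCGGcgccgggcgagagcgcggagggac
P4hb: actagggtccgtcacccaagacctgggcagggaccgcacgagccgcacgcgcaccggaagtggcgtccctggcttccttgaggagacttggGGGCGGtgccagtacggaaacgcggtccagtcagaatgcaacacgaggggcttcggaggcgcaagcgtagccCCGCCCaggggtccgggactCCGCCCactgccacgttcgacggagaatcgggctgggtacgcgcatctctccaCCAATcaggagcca
Serpinh1: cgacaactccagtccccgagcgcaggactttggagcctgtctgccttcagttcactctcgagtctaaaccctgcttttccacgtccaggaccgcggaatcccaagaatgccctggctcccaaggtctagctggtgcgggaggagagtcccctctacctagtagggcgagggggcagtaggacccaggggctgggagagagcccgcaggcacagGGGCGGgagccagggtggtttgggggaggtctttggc
Crtap: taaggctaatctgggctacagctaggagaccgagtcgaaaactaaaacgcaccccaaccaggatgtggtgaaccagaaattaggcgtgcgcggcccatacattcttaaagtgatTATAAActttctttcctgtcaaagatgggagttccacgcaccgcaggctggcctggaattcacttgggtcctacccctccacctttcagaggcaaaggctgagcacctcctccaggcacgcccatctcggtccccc
A GC box was present in 7 of the 8 windows, all but that of *Crtap*, and in 32.9% of all 27025 promoters of the table. *P4ha3* held 5 GC boxes, *P4hb* 3 and *Serpinh1* 1. *P4hb* was the 1 gene with a CCAAT box, which 34.5% of all promoters held, and *Crtap* the 1 gene with a TATA box, which 13% held. The share of G and C was 67.2% in *P4ha3*, 66.8% in *P4hb*, 63.6% in *Serpinh1* and 53.6% in *Crtap*, and over the 8 windows it reached 78% in *Adamts2*, whose window is not shown. These matches describe letters in the windows and say nothing of which factor binds there.

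All 10 genes were higher in bleomycin-treated than in saline-treated *Acta2-tdT* mice, both in FPKM as deposited and after scaling. Testing used limma on log2(FPKM + 1) with Benjamini-Hochberg adjustment over all 12523 genes that reached 1 FPKM in at least 4 of the 8 mice, with a threshold of 0.05. As deposited, 70.4% of all tested genes were called higher and the median log2 difference was 1.76, against 4.24 over the 10 genes, so a call on this scale says little about these genes. After scaling, 23.9% of all tested genes were called higher and the median was -0.024, against 1.80 over the 10 genes. Every bleomycin-treated mouse lay above every saline-treated mouse for all 10 genes as deposited, as for 67.8% of tested genes, and for 9 of the 10 after scaling, as for 21.5%. In sorted bulk samples, more cells of a type and more RNA per cell cannot be told apart. Differences on the log2(FPKM + 1) scale understate the change of low genes. Values below follow the order of mice 1 to 4 with saline and mice 5 to 8 with bleomycin, and gene positions are those of the files, on GRCm38.

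**Figure D1:**
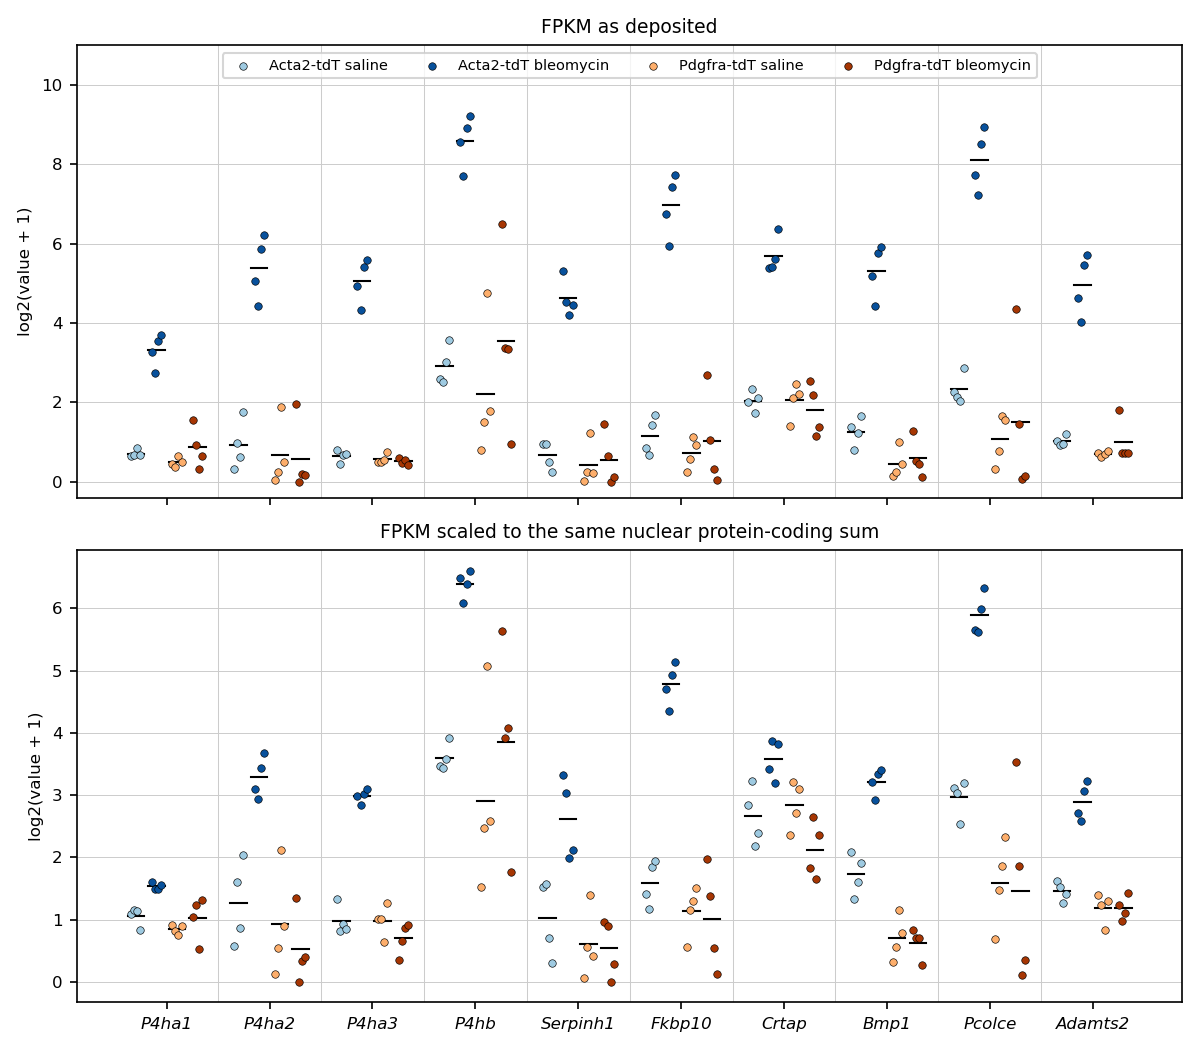
Levels of the 10 genes in each mouse, as log2(value + 1) of FPKM as deposited (top) and scaled to the same nuclear protein-coding sum (bottom). Each point is 1 mouse, bars are group means, and colours are the 4 groups. The *Acta2-tdT* bleomycin points lie above the other groups in the top panel, and in the bottom panel only *Crtap* overlaps another *Acta2-tdT* point.

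The prolyl 4-hydroxylase genes differed widely in how far they rose. *P4ha1* (ENSMUSG00000019916, chr10:59323296-59373304, plus strand) encodes the alpha subunit found in most tissues and measured 0.562, 0.589, 0.788 and 0.605 FPKM with saline and 8.69, 5.63, 10.7 and 12 with bleomycin. Scaled, these became 1.13, 1.23, 1.21 and 0.779 against 2.03, 1.81, 1.83 and 1.94. It was the smallest change of the 10 on both scales, yet the groups stayed apart. The log2 difference was 2.61 (SE 0.27, limma adjusted p = 1.86e-05) as deposited and 0.48 (SE 0.15, limma adjusted p = 0.0199) scaled, and the scaled call was lost when all 16 mice shared 1 fit (limma adjusted p = 0.0695).

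*P4ha2* (ENSMUSG00000018906, chr11:54100924-54131662, plus strand), another alpha subunit, measured 0.247, 0.975, 0.533 and 2.40 FPKM with saline and 32.4, 20.7, 57.7 and 73.0 with bleomycin. Saline mouse 4 was the highest of its group, and its scaled value of 3.09 was still below the lowest scaled bleomycin value of 6.66. The log2 difference was 4.48 (SE 0.47) as deposited and 2.02 (SE 0.34, limma adjusted p = 0.000739) scaled. *P4ha3* (ENSMUSG00000051048, chr7:100285520-100319699, plus strand), the last of the alpha subunits, measured 0.749, 0.368, 0.594 and 0.621 FPKM with saline and 29.5, 19.1, 41.7 and 47.3 with bleomycin. Its scaled bleomycin values lay close together, at 6.91, 6.15, 7.11 and 7.61, and the log2 difference was 4.41 (SE 0.33) as deposited and 2.003 (SE 0.19, limma adjusted p = 2.51e-05) scaled.

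*P4hb* (ENSMUSG00000025130, chr11:120560298-120573253, minus strand) encodes protein disulfide isomerase, which also serves other secreted proteins, and was the highest of the 10 genes in every *Acta2-tdT* mouse. It measured 5.00, 4.70, 7.17 and 11.0 FPKM with saline and 377, 208, 484 and 598 with bleomycin. Scaled, the ranges were 9.83 to 14.1 and 66.8 to 96.0, far apart. The log2 difference was 5.68 (SE 0.45) as deposited and 2.78 (SE 0.25, limma adjusted p = 2.31e-05) scaled.

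Of the 3 folding genes of the endoplasmic reticulum, *Fkbp10* rose most and *Crtap* least. *Serpinh1* (ENSMUSG00000070436, chr7:99345376-99353239, minus strand) encodes HSP47, the chaperone that binds procollagen helices. It measured 0.926, 0.941, 0.411 and 0.186 FPKM with saline and 38.6, 22.3, 17.5 and 20.8 with bleomycin. Scaled bleomycin values were 9.02, 7.17, 2.99 and 3.35, so that mice 5 and 6 were high and mice 7 and 8 low, and the highest was 3.02 times the lowest, the widest spread of the 10 genes in this group. The saline mice reached 1.97 on that scale, and the log2 difference was 3.96 (SE 0.33) as deposited and 1.59 (SE 0.39, limma adjusted p = 0.00682) scaled.

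*Fkbp10* (ENSMUSG00000001555, chr11:100415697-100424824, plus strand) encodes FKBP65, a prolyl isomerase of the endoplasmic reticulum, and measured 0.816, 0.600, 1.70 and 2.199 FPKM with saline and 107, 60.4, 172 and 213 with bleomycin. Its scaled means were 2.09 ± 0.755 (SD, n = 4) and 27.0 ± 6.30 (SD, n = 4), a ratio of 12.96 and the largest of the 10 genes. The log2 difference was 5.81 (SE 0.46) as deposited and 3.19 (SE 0.27, limma adjusted p = 2.15e-05) scaled. *Crtap* (ENSMUSG00000032431, chr9:114375134-114390675, minus strand) encodes cartilage-associated protein, a partner of prolyl 3-hydroxylase 1 and cyclophilin B. It measured 3.06, 4.02, 2.31 and 3.29 FPKM with saline and 41.2, 42.0, 47.7 and 81.7 with bleomycin. It was the 1 gene of the 10 whose scaled values overlapped, since saline mouse 2 at 8.40 lay above bleomycin mouse 7 at 8.15. Its log2 difference was 3.66 (SE 0.34) as deposited and 0.91 (SE 0.29, limma adjusted p = 0.0249) scaled, and the scaled call was lost when all 16 mice shared 1 fit (limma adjusted p = 0.0720).

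Among the genes of propeptide removal, *Pcolce* had larger log2 differences than both proteinases. *Bmp1* (ENSMUSG00000022098, chr14:70474557-70520260, minus strand) encodes the proteinase that removes the C-propeptide, and measured 1.60, 0.725, 1.33 and 2.15 FPKM with saline and 35.4, 20.4, 53.2 and 59.4 with bleomycin. *Adamts2* (ENSMUSG00000036545, chr11:50602084-50807573, plus strand) encodes the main N-propeptide proteinase, and measured 1.03, 0.893, 0.916 and 1.29 FPKM with saline and 23.7, 15.4, 43.3 and 51.9 with bleomycin. The groups of both genes were apart on both scales. Scaled log2 differences were 1.48 (SE 0.23, limma adjusted p = 0.000456) for *Bmp1* and 1.44 (SE 0.21, limma adjusted p = 0.000307) for *Adamts2*, against 4.06 (SE 0.39) and 3.94 (SE 0.39) as deposited. *Pcolce* (ENSMUSG00000029718, chr5:137605103-137611487, minus strand) encodes a secreted glycoprotein that speeds up the C-proteinase. It measured 3.80, 3.43, 3.13 and 6.34 FPKM with saline and 212, 150, 364 and 491 with bleomycin. Its scaled values went from 4.80 to 8.16 with saline to 48.3 to 79.0 with bleomycin, a log2 difference of 2.93 (SE 0.28, limma adjusted p = 2.56e-05), and of 5.77 (SE 0.45) as deposited.

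Only *P4hb*, *Crtap* and *Pcolce* reached 1 FPKM in all 4 saline-treated mice. The other 7 genes did so in at most 3 of them, and *P4ha1*, *P4ha3* and *Serpinh1* in 0, so that these 7 passed the filter only with the bleomycin-treated mice, where they are high, and their calls follow in part from it. With no filter on low values all 10 genes were called higher as deposited, as were 23.8% of the 42342 genes then tested. Leaving out 1 bleomycin-treated mouse took *P4ha1*, *P4ha3* and *Serpinh1* out of the test, and 7 of the 10 were then called.

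**Figure D2:**
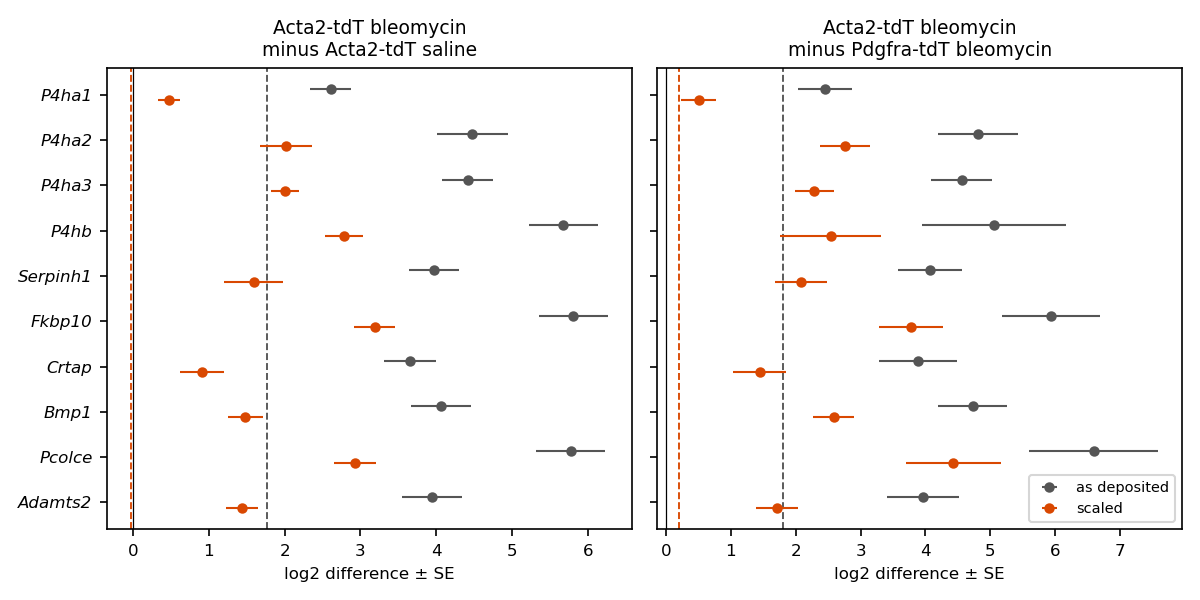
Log2 differences ± SE of the 10 genes between bleomycin- and saline-treated *Acta2-tdT* mice (left) and between bleomycin-treated *Acta2-tdT* and *Pdgfra-tdT* mice (right), as deposited (grey) and scaled (orange). Dashed lines mark the median of all tested genes, 1.76 and -0.024 on the left and 1.81 and 0.19 on the right, and each point lies to the right of the line of its own colour.

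Markers of other cells moved in the same comparison, and their part in these results was not tested. All 8 tested macrophage markers of 9 were called higher as deposited and 5 of them after scaling, with summed levels of 53.3 to 298 FPKM with saline and 1672 to 7289 with bleomycin, and scaled sums of 111 to 384 and 391 to 1245. The 4 neutrophil markers were called higher as deposited and lower after scaling, with scaled sums of 1532 to 2251 with saline and 194 to 1329 with bleomycin. All 4 tested epithelial markers of 6 were called higher as deposited and 0 after scaling, where the median log2 difference was 0.30 and sums went from 92.8 to 1203 with saline and from 50.1 to 358 with bleomycin. Endothelial markers turned with the scale, with sums of 5.83 to 12.3 FPKM with saline and 18.9 to 26.2 with bleomycin, and scaled sums of 8.94 to 15.8 and 4.03 to 6.12. All 3 tested of 6 were called higher as deposited, and 1 was called lower and 0 higher after scaling. Pericyte markers turned as well, from 6.87 to 16.7 FPKM with saline to 33.0 to 79.1 with bleomycin, and on the scaled values from 14.3 to 21.5 to 10.6 to 13.1. Of these 5 markers, 4 were called higher as deposited, and 1 higher and 2 lower after scaling. Lymphocyte markers summed to at most 10.01 FPKM, and their scaled sums were 4.73 to 7.44 with saline and 0.239 to 2.34 with bleomycin, without overlap. The 1 tested of 6 was not called as deposited (log2 difference 0.13) and was called lower after scaling (-1.18). Smooth muscle markers summed to 341 to 492 scaled with saline and 434 to 664 with bleomycin, and of the 6, 4 were called higher as deposited and 1 higher and 2 lower after scaling. *Des*, the muscle intermediate filament desmin, had a scaled log2 difference of 1.90, while *Myh11*, smooth muscle myosin, had -1.96 and *Lmod1*, an actin filament nucleator, -1.72. *Acta2* itself had 0.14 (limma adjusted p = 0.683) scaled. All 5 tested fibroblast markers of 6 were called higher on both scales, and no marker list had a gene listed at 0 in every *Acta2-tdT* mouse of a group.

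The substrates of these proteins rose more than the 10 genes did. *Col1a1* and *Col1a2*, the chains of type I collagen, had log2 differences of 7.62 (SE 0.46) and 7.06 (SE 0.40) as deposited and 4.85 (SE 0.28) and 4.23 (SE 0.24) scaled, and *Col3a1* of type III collagen 6.29 (SE 0.48) and 3.53 (SE 0.30). Within each mouse, the FPKM of a gene divided by that of *Col1a1* does not depend on the scaling. *P4hb* was 2.43 to 4.50 times *Col1a1* with saline (median 3.26) and 0.534 to 0.756 times with bleomycin (median 0.676). *Pcolce* went from a median of 1.90 to 0.457, *Crtap* from 1.42 to 0.0821, *Adamts2* from 0.504 to 0.0498 and *P4ha1* from 0.304 to 0.0147. The ratio was lower with bleomycin in all 4 mice than in any saline-treated mouse for 9 of the 10 genes, and *Serpinh1* overlapped at 0.0763 to 0.534 with saline and 0.0193 to 0.0811 with bleomycin. In mean log2 ratio the 10 genes fell between 4.38 for *P4ha1* and 1.47 for *Fkbp10*, whose ratio lay at 0.1899 to 0.220 in the 4 bleomycin-treated mice. *Col1a1* itself rose by 4.85 scaled, beside a median of -0.024 over all tested genes, so a gene of median change falls against it too. How many of all genes separate in this ratio was not counted. These ratios were not tested across genes and are descriptions.

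**Figure D3:**
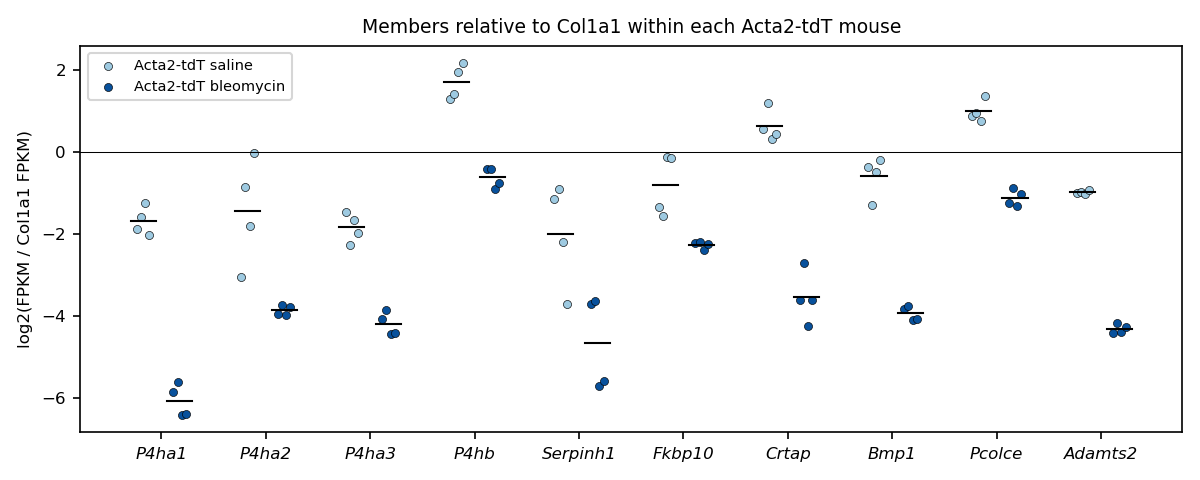
FPKM of each gene divided by that of Col1a1 in the same *Acta2-tdT* mouse, on a log2 scale. Points are mice and bars are group means, and the line at 0 marks a level equal to that of Col1a1. The mean of every gene is lower with bleomycin, and with saline P4hb, Crtap and Pcolce lie above the line.

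The mix of prolyl 4-hydroxylase alpha subunits was compared as the share of each in their summed FPKM within a mouse. In saline-treated *Acta2-tdT* mice *P4ha1* made up 31.1 ± 10.6% (SD, n = 4), *P4ha2* 40.1 ± 22.6% and *P4ha3* 28.8 ± 14.2%. With bleomycin the shares were 10.9 ± 1.72% (SD, n = 4), 49.7 ± 4.80% and 39.4 ± 3.09%. The share of *P4ha1* ranged from 16.7 to 41.1% with saline and from 9.10 to 12.4% with bleomycin, without overlap. Its difference of -20.2 percentage points had p = 0.0286 in an exact two-sided permutation test, the smallest that 4 mice against 4 allow, and 0.171 after adjustment over 12 comparisons of shares. *P4ha2* (9.65 points) and *P4ha3* (10.6 points) had exact permutation p = 0.429 and 0.229. Saline levels of *P4ha1* and *P4ha3* were 0.368 to 0.788 FPKM, near the receptor genes' median, so these shares rest on low values. The FPKM of *P4hb* was 2.43 to 3.75 times the summed alpha subunits with saline and 4.40 to 5.34 times with bleomycin. In *Pdgfra-tdT* mice the shares spread widely, with *P4ha2* between 4.49 and 72.7% with saline and between 0 and 53.9% with bleomycin, and the share of *P4ha1* with bleomycin differed between *Acta2-tdT* and *Pdgfra-tdT* mice by -36.9 points, with the same exact permutation p-values. None of the remaining comparisons of shares had an adjusted exact permutation p under 0.171.

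**Figure D4:**
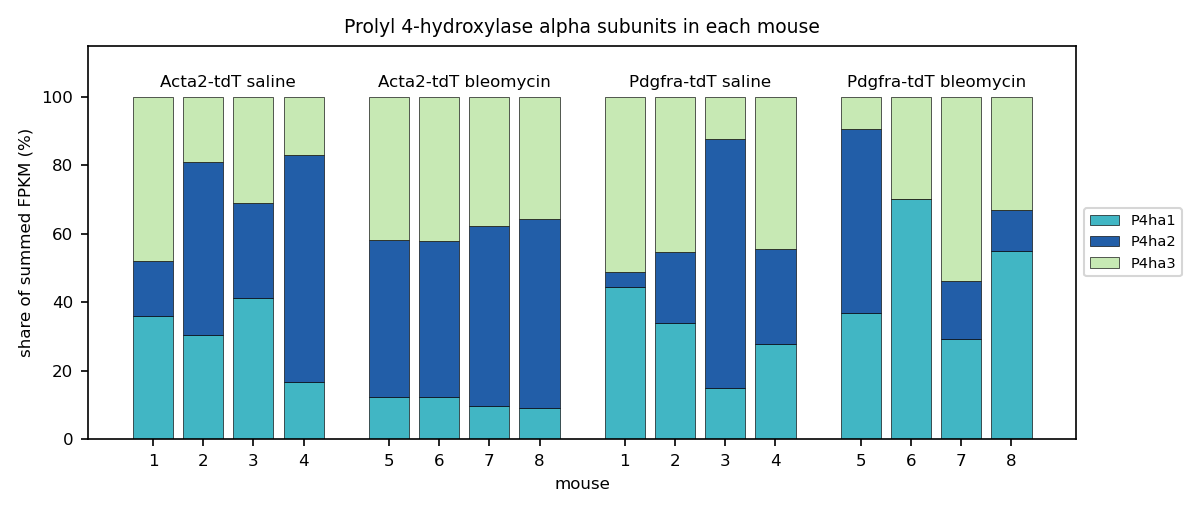
Share of P4ha1, P4ha2 and P4ha3 in their summed FPKM, as stacked bars in percent for each of the 16 mice. The 4 *Acta2-tdT* bleomycin bars are nearly alike, with P4ha1 at 9.10 to 12.4%, and the other groups differ from mouse to mouse.

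FPKM are per length, so the order of the genes within a mouse can be read as an order of levels. In all 4 bleomycin-treated *Acta2-tdT* mice *P4hb* had rank 1, *Pcolce* rank 2, *Fkbp10* rank 3, *P4ha3* rank 8 and *P4ha1* rank 10. Between them, *Crtap* ranked 4 to 6, *P4ha2* 4 to 7, *Bmp1* 5 to 7, *Serpinh1* 5 to 9 and *Adamts2* 7 to 9, so that these neighbours did not keep 1 order across mice. With saline *P4hb* was again first in every mouse, and *Crtap* and *Pcolce* took ranks 2 and 3, while *Fkbp10* ranked 4 to 8. In *Pdgfra-tdT* mice the first place went to *P4hb* or *Crtap* with saline, both within ranks 1 and 2, and *P4ha2*, *P4ha3*, *Serpinh1* and *Fkbp10* each reached rank 10 in at least 1 bleomycin-treated mouse.

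Other genes of the same pathway were followed in a list of 30, of which 29 were in the files and 24 were tested in *Acta2-tdT* cells. As deposited all 24 were called higher with bleomycin (median log2 difference 3.78), and after scaling 17 were called higher and 1 lower, as were 23.9% and 32.5% of all tested genes (median 1.33). *Sparc*, a collagen-binding secreted protein, rose by a log2 of 5.79 as deposited and 2.81 scaled. *Kdelr3*, a receptor that returns proteins to the endoplasmic reticulum, rose by 4.94 and 2.51, and *Sec13*, a subunit of the vesicle coat that carries cargo out of it, by 4.92 and 2.18. *Plod3*, a lysyl hydroxylase, came after *Kdelr3* on the scaled values, with 2.46. Some of the 24 genes, among them *Plod3* and *P3h1*, reached 1 FPKM in 0 saline-treated mice. They passed the filter only with the bleomycin-treated mice, where they are high, so that their calls follow in part from it. *Pcolce2*, a relative of *Pcolce*, turned its direction with the scale, at 0.84 (SE 0.36, limma adjusted p = 0.0471) as deposited and -1.53 (SE 0.18, limma adjusted p = 6.97e-05) scaled.

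Partners of *Crtap* rose with it, as *P3h1*, prolyl 3-hydroxylase 1, had log2 differences of 4.47 (SE 0.41) as deposited and 2.19 (SE 0.24) scaled and *Ppib*, cyclophilin B, 4.02 (SE 0.40) and 1.31 (SE 0.29). The export genes *Mia3* and *Sec24d* were called as deposited, at 2.39 and 3.08, while their scaled values of 0.18 (limma adjusted p = 0.440) and 0.49 (limma adjusted p = 0.389) did not pass. *Adamts14*, a relative of *Adamts2* that also cuts N-propeptides, had 2.47 and 0.72 (limma adjusted p = 0.00761). These 5 genes were named after their values were seen.

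In *Pdgfra-tdT* cells no difference between bleomycin and saline passed the test. Only *P4hb*, *Crtap* and *Pcolce* reached 1 FPKM in 4 of the 8 mice, 0 of these 3 were called by limma on either scale or with mouse quality weights, and 0 had an unadjusted p under 0.05. Of the 7275 genes tested, 0.124% were called as deposited and 0.151% scaled. *P4hb* measured 0.749, 1.84, 26.1 and 2.42 FPKM with saline and 90.0, 9.39, 9.11 and 0.923 with bleomycin. Its highest values were those of saline mouse 3 and bleomycin mouse 5, and the groups overlapped. Its log2 difference was 1.33 (SE 1.27, limma adjusted p = 0.791), and 0.94 (SE 1.02, limma adjusted p = 0.773) scaled.

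*Pcolce* measured 0.244, 0.714, 2.13 and 1.96 FPKM with saline and 19.6, 1.75, 0.0468 and 0.107 with bleomycin, so that bleomycin mouse 5 was high and mice 7 and 8 were low. The log2 difference was 0.43 (SE 0.92, limma adjusted p = 0.863) and turned to -0.12 (SE 0.75) after scaling. *Crtap* measured 1.66, 3.32, 4.49 and 3.65 FPKM with saline and 4.77, 3.52, 1.23 and 1.59 with bleomycin, a log2 difference of -0.24 (SE 0.44, limma adjusted p = 0.845) and of -0.72 (SE 0.54, limma adjusted p = 0.773) scaled. The standard errors show that differences of this size could not be resolved with these mice.

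The endothelial marker *Cldn5* measured 7.58, 2.65, 246 and 5.01 FPKM in the same saline-treated mice and 741, 77.7, 19.5 and 2.43 in the bleomycin-treated mice. The fibroblast marker *Dcn* measured 2.78, 1.25, 44.1 and 3.99 FPKM with saline and 96.2, 14.6, 0.622 and 0.820 with bleomycin. Both were highest in saline mouse 3 and bleomycin mouse 5, and their part in the levels of *P4hb* and *Pcolce* was not tested. Without saline mouse 3 and bleomycin mouse 5, *P4hb* ranged from 0.749 to 2.42 FPKM with saline and from 0.923 to 9.39 with bleomycin. Only *P4hb* and *Crtap* could then be tested, and 0 of these 2 were called. Macrophage markers summed to 34.3 to 79.1 FPKM with saline and 372 to 3231 with bleomycin, with 0 of 4 tested called. Their scaled sums were 42.6 to 196 with saline and 971 to 2784 with bleomycin, without overlap, and their part was not tested.

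**Figure D5:**
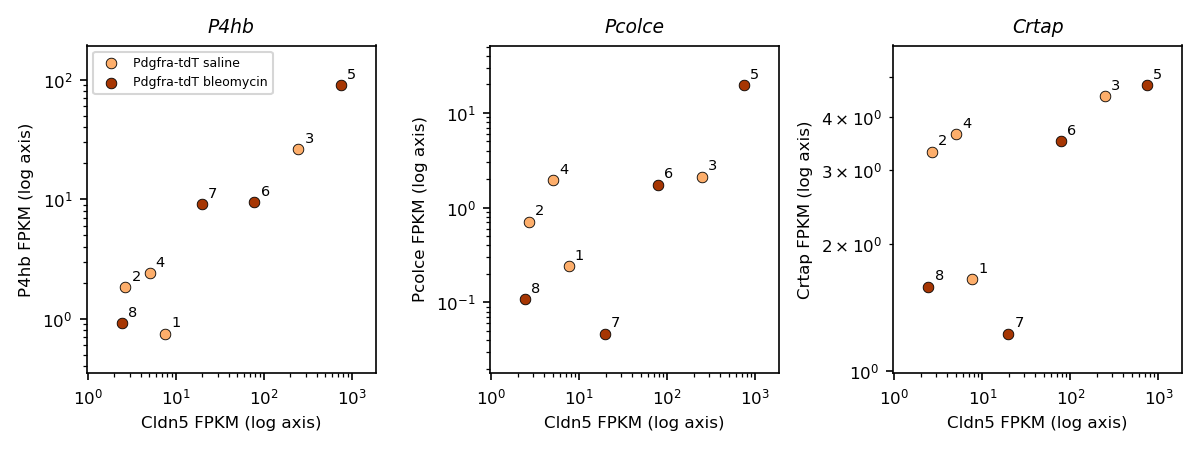
P4hb, Pcolce and Crtap against the endothelial marker Cldn5 in the 8 *Pdgfra-tdT* mice, in FPKM on log axes. Numbers are mice, and saline mouse 3 and bleomycin mouse 5 lie farthest to the right, with the highest P4hb, Pcolce and Crtap as deposited. Scaled (not drawn), Crtap was highest in saline mouse 2 (8.22) and bleomycin mouse 6 (5.26) of their groups.

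The other 7 genes stayed low in *Pdgfra-tdT* cells, and their groups overlapped as well, so that all 10 genes overlapped on both scales. Of all tested genes, every bleomycin-treated mouse lay above every saline-treated mouse for 1.43% and below for 1.15% as deposited, and for 1.31% and 0.962% scaled. *P4ha3* never left 0.341 to 0.677 FPKM over the 8 mice. *Adamts2* measured 0.543 to 0.710 FPKM with saline and 0.650 to 0.660 in 3 bleomycin-treated mice, against 2.50 in mouse 5. Scaled, *Adamts2* measured 1.35 in mouse 5, below 1.70 in mouse 8. *P4ha1* reached at most 1.96 FPKM, *Bmp1* 1.44, *P4ha2* 2.88, *Fkbp10* 5.43 and *Serpinh1* 1.76, all in bleomycin mouse 5. *P4ha2* was listed at 0 in mouse 6 and *Serpinh1* in mouse 7 of the bleomycin group, and the lower Cufflinks bound of *P4ha2* was above 0 in 1 of the 4 bleomycin-treated mice. With no filter on low values all 10 genes were tested and 0 were called, where 0.00466% of 42954 genes were. The pathway list had 6 genes tested and 0 called, and its largest value, named after the values were seen, was that of *Sec13* at 1.54 (SE 0.98).

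Between the lines with saline, 0 of the 3 tested genes were called, on either scale, where 2.91% of 8153 tested genes were as deposited and 3.35% scaled. *Pcolce* was higher in every *Acta2-tdT* mouse, at 3.13 to 6.34 against 0.244 to 2.13 FPKM, with a log2 difference of 1.26 (SE 0.37, limma unadjusted p = 0.00908, adjusted p = 0.157), the 1 gene of the 3 with an unadjusted p under 0.05. *P4hb* had 0.72 (SE 0.82, limma adjusted p = 0.756) and *Crtap* -0.0040 (SE 0.30, limma adjusted p = 0.997). Without *Pdgfra-tdT* mouse 3, the call changed for *P4hb*, at 1.57 (SE 0.35, limma adjusted p = 0.0184), and for *Pcolce*, at 1.45 (SE 0.34, limma adjusted p = 0.0217), and 2141 of 7356 genes were then called in place of 237.

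Of the marker lists, all 6 smooth muscle markers and 3 of 4 neutrophil markers were called higher in saline-treated *Acta2-tdT* cells on both scales, and their part in these differences was not tested. Neutrophil markers summed to 737 to 1469 FPKM against 18.4 to 42.7 in *Pdgfra-tdT* cells, with a median log2 difference of 5.04 as deposited and 4.96 scaled. Of the tested pericyte markers 1 of 2 was called higher on both scales, and of the 5 tested fibroblast markers 1 higher and 1 lower as deposited and 1 lower scaled. The tested macrophage, endothelial, epithelial and lymphocyte markers had 0 calls.

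Groups did not overlap for *P4ha1*, *Pcolce* and *Adamts2* as deposited and for *Bmp1* and *Pcolce* after scaling, against 6.56% and 7.75% of tested genes, and *P4ha1*, *Adamts2* and *Bmp1* were below the filter. *Bmp1* measured 0.725 to 2.15 FPKM in *Acta2-tdT* and 0.102 to 0.995 in *Pdgfra-tdT* mice. Of the pathway list, 6 genes were tested and 1 was called, *Pcolce2*, at 1.64 (SE 0.23, limma adjusted p = 0.00971) as deposited and 1.82 scaled.

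With bleomycin the lines were far apart. All 10 genes were called higher in *Acta2-tdT* cells as deposited, where 71.0% of 11995 tested genes were, and 9 of the 10 after scaling, where 15.6% were. The median log2 difference over the 10 genes was 4.64 as deposited and 2.41 scaled, beside 1.81 and 0.19 over all tested genes. No group overlapped for any of the 10 on either scale, as for 56.8% and 18.9% of tested genes. *Crtap* was the 1 gene that reached 1 FPKM in all 4 bleomycin-treated *Pdgfra-tdT* mice. The other 9 passed the filter only with the *Acta2-tdT* mice, where they are high, so that their calls follow in part from it, and with no filter all 10 were called higher as deposited, as were 19.4% of the 40888 genes then tested. The bleomycin-treated *Acta2-tdT* mice are the same as in the comparison with saline, so the comparisons are not independent of each other.

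*Pcolce* had the largest difference, 6.60 (SE 0.99) as deposited and 4.43 (SE 0.73, limma adjusted p = 0.00305) scaled, followed by *Fkbp10* with 5.94 (SE 0.75) and 3.78 (SE 0.49). *P4hb* had 5.06 (SE 1.11) and 2.54 (SE 0.78, limma adjusted p = 0.0300), with the highest *Pdgfra-tdT* value of 90.0 FPKM below the lowest *Acta2-tdT* value of 208. *P4ha2* had 4.81 and 2.76, *Bmp1* 4.73 and 2.59, *P4ha3* 4.56 and 2.29, *Serpinh1* 4.07 and 2.08, *Adamts2* 3.97 and 1.71, and *Crtap* 3.89 and 1.45, in the same order of scales. *P4ha1* was the exception, with 2.45 (SE 0.42) as deposited and 0.50 (SE 0.27, limma adjusted p = 0.173) scaled, although its scaled values of 1.81 to 2.03 lay above 0.450 to 1.48. With the replicate number as a block and the scaling together, *Crtap* was not called either (limma adjusted p = 0.0546).

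Markers of other cells differed in the same comparison, and their part in the difference was not tested. The 4 neutrophil markers were all called higher in *Acta2-tdT* cells as deposited and 3 scaled, with sums of 1135 to 5682 FPKM against 5.64 to 146. All 5 tested fibroblast markers were called higher as deposited and 4 scaled, and all 6 smooth muscle markers on both scales. Of the 9 macrophage markers 6 were called higher as deposited, and 1 higher and 2 lower scaled. Their scaled sums were 391 to 1245 in *Acta2-tdT* and 971 to 2784 in *Pdgfra-tdT* mice. Of the 5 tested endothelial markers 0 were called as deposited and 4 lower scaled, where the median log2 difference was -2.17. Of the 4 tested pericyte markers 4 were called higher as deposited and 2 scaled, and of the 4 tested epithelial markers 3 and 0. The 1 tested lymphocyte marker was not called as deposited and was called lower scaled, at -1.01. In the pathway list 24 of 24 tested genes were called higher as deposited and 16 scaled. *Sparc* led with 6.10 and 3.43, then *Kdelr3* with 5.15 and 2.96 and *P3h1* with 4.60 and 2.56, in the same order of scales. At least *P3h1*, at 1 FPKM or more in 1 *Pdgfra-tdT* mouse, passed the filter only with the *Acta2-tdT* mice. Its call follows in part from that.

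Whether bleomycin acted differently in the lines was tested as an interaction over all 16 mice. As deposited, all 10 genes had a larger effect in *Acta2-tdT* cells, with 36.6% of 16605 tested genes called in that direction and a median log2 value of 4.14 over the 10. After scaling 4 of the 10 were called, with 1.24% of tested genes called in that direction. These were *P4ha3* at 2.29 (SE 0.33, limma adjusted p = 0.00181), *Fkbp10* at 3.32 (SE 0.57, limma adjusted p = 0.00706), *Bmp1* at 1.56 (SE 0.38, limma adjusted p = 0.0441) and *Adamts2* at 1.44 (SE 0.35, limma adjusted p = 0.0441). *P4ha3* reached 1 FPKM in 0 mice outside the bleomycin-treated *Acta2-tdT* group and *Adamts2* in 3, so that both, like *P4ha1*, *P4ha2* and *Serpinh1*, were tested only with the group where they are high. With no filter, 9 of the 10 were called as deposited, all but *P4hb*, as were 11.4% of the 44499 genes then tested. *P4ha2* at 2.42 (limma adjusted p = 0.0569) and *Pcolce* at 3.05 (limma adjusted p = 0.0765) did not pass, and they were called when saline mouse 3 and bleomycin mouse 5 of the *Pdgfra-tdT* line were left out. *Serpinh1* had 1.66, *Crtap* 1.63, *P4hb* 1.84 and *P4ha1* 0.29, with limma adjusted p from 0.104 to 0.599.

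Markers of other cells were called in the interaction too, and their part in it was not tested. As deposited, the effect was larger in *Acta2-tdT* cells for 4 of 9 macrophage, 2 of 4 neutrophil, 4 of 6 smooth muscle, 3 of 5 pericyte, 4 of 5 tested fibroblast and 1 of 4 tested epithelial markers, and for 0 of 5 tested endothelial and 0 of 2 tested lymphocyte markers. After scaling it was larger for 2 fibroblast and 1 smooth muscle markers and smaller for 2 smooth muscle and 1 pericyte markers, and 0 of the macrophage, neutrophil, endothelial, epithelial and lymphocyte markers were called.

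The call of *P4hb* as deposited (4.35, limma adjusted p = 0.0264) did not hold without *Acta2-tdT* bleomycin mouse 7 (limma adjusted p = 0.0565) or mouse 8 (0.0602), or without *Pdgfra-tdT* bleomycin mouse 8 (0.0501). In the pathway list 22 of 24 tested genes were called as deposited and 3 after scaling, *Kdelr3* at 2.73, *P3h1* at 2.15 and *P3h4*, a family member without hydroxylase activity, at 1.91. At least *P3h1* and *P3h4* passed the filter only with the bleomycin-treated *Acta2-tdT* mice, where they are high, so that their calls follow in part from it. *Col1a1*, *Col1a2* and *Col3a1* were called on both scales, at 5.40, 4.87 and 3.64 scaled.

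The genes with the pattern most like each of the 10 were found among 10375 protein-coding genes by the root-mean-square difference of scaled log2 levels over the 16 mice, each gene centred on its own mean. The mice share their groups and libraries, so this is a description. *Pcolce* was nearest to *Col3a1*, *Col6a2* and *Bgn*, at 0.316 for *Col3a1* against 1.94 for the spread of *Pcolce* itself. *Fkbp10* was nearest to *Col5a2* (0.323), with *Mmp14* also among its 3 nearest, and *Bmp1* to *Loxl1* (0.238), *Aebp1* and *Col16a1*. *P4ha2* was nearest to *Calu* (0.385), *Txndc5* and *Pls3*, and *P4hb* to *Vim* (0.294), *Tpm4* and *Hspa5*. *P4ha3* was nearest to *Serinc2* (0.192), *Cxcl14* and *Loxl3*, and *Adamts2* to *Fam20a* (0.203), *Srpx2* and *Bicc1*.

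A collagen gene was among the 3 nearest genes for *Pcolce*, *Fkbp10* and *Bmp1*, and for none of the other 7 genes. The difference also depends on how far a gene changed, so a gene of small spread cannot lie near one of wide spread. The spread was 0.307 for *P4ha1*, 0.629 for *Crtap* and 0.735 for *Adamts2*, against 1.94 for *Pcolce*. The lack of a near collagen gene therefore does not show a different shape. *P4ha1* was nearest to *Mocs3* (0.163), *Apol9b* and *Slc7a1*, *Serpinh1* to *Nfkb2* (0.403), *Nudt4* and *Selenon*, and *Crtap* to *Slc46a1* (0.338), *Ncam1* and *Fam150a*. The nearest of the 10 genes to one another were *Adamts2* for *P4ha3* and *Fkbp10* for *Pcolce*, each at rank 9 of all genes, while *P4hb* had its nearest, *Fkbp10*, at rank 497 and *P4ha1* its nearest, *Crtap*, at rank 3238.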

How the data were processed

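The authors aligned reads with TopHat2 2.1.1 and Bowtie2 to mm10 and ran Cufflinks 2.1.1 on each mouse separately to obtain FPKM for every gene, and the deposited FPKM with their bounds are the values used here. FPKM carry no counts, so the depth is unknown, and no counting error can be given for a value. The 4 groups were taken from the labels of line and agent, and each sample is a separate mouse. FPKM of a gene's rows were summed (49534 rows, 49452 genes, 1 row for each of the 10 genes), 15 genes that Cufflinks did not mark as OK were left out, and no 2 mice had identical values.

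Tests used limma 3.58.1 (lmFit, eBayes with trend) in R 4.3.3 on log2(FPKM + 1), for genes of at least 1 FPKM in 4 of 8 mice, or in 4 of 16 for the interaction, with Benjamini-Hochberg adjustment over all tested genes and a threshold of 0.05. The scaled values bring the 21950 nuclear protein-coding genes of each mouse to the geometric mean of the 16 sums and use the same tested genes. Tables and shares were made with Python 3.11.15, pandas 2.3.3, NumPy 2.4.6, SciPy 1.17.1 and matplotlib 3.10.9. Shares were compared by exact two-sided permutation tests.

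The members and all lists were chosen with earlier results of these data known. All 10 genes are named. Of the pathway list, up to 3 called genes with the largest rise and up to 3 with the largest fall are named per comparison, together with the substrates, the line's own markers and, for each of the 10, the 3 protein-coding genes with the most similar profile, of which 1 is not reported here. Alternatives were 2 scalings, a pseudocount of 0.1, no filter, mouse quality weights, the largest row per gene, all 16 mice in 1 fit, the replicate number as a block and each mouse left out. Leaving out both libraries with endothelial markers, and scaling within 1 fit of all mice, were chosen after seeing the data. Protein sequences, and the promoters of *Fkbp10* and *Bmp1*, were not used here.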

Additional observations from a re-analysis of the deposited data

Results flagged for a closer look

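In *Pdgfra-tdT* bleomycin mouse 5, *P4ha2* (2.88 FPKM) and *Adamts2* (2.50 FPKM) lay far above the other 3 mice of the group, with gaps of 0.897 and 0.991 of the whole range on the log2(FPKM + 1) scale, above Dixon's critical value for 4 samples. These were 2 of 40 groups of 4 examined, where chance alone flags about 1 in 20. On FPKM itself *P4hb* (0.905) and *Pcolce* (0.913) of the same mouse also passed, as did 3 genes of *Pdgfra-tdT* saline mouse 3 and *Crtap* of *Acta2-tdT* bleomycin mouse 8. Scaled, *Adamts2* measured 1.35 in bleomycin mouse 5 and 1.70 in mouse 8, so mouse 5 was not the highest there. *P4ha2* was still highest in mouse 5, at 1.55 scaled. In its group, mouse 5 had the highest sums of endothelial markers (897 FPKM), fibroblast markers (145 FPKM) and nuclear protein-coding genes (137952 FPKM). Their part was not tested.

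The effect of bleomycin differed between the lines for all 10 genes in the interaction test as deposited (limma, 36.6% of tested genes higher). The log2 effect in *Acta2-tdT* minus that in *Pdgfra-tdT* was 2.23 for *P4ha1*, 4.57 for *P4ha2*, 4.47 for *P4ha3* and 4.35 for *P4hb*. It was 3.83 for *Serpinh1*, 5.50 for *Fkbp10* and 3.897 for *Crtap*, and 3.93 for *Bmp1*, 5.34 for *Pcolce* and 3.66 for *Adamts2*. The call of *P4hb* was lost without *Acta2-tdT* bleomycin mouse 7 (limma adjusted p = 0.0565) or mouse 8 (0.0602), without *Pdgfra-tdT* bleomycin mouse 8 (0.0501), with a pseudocount of 0.1 and with no filter. After scaling, the differences of *P4ha3*, *Fkbp10*, *Bmp1* and *Adamts2* were called, as were 1.24% of tested genes in that direction. *P4ha1*, *P4ha2*, *P4ha3*, *Serpinh1* and *Adamts2* passed the filter only with the bleomycin-treated *Acta2-tdT* mice, where they are high.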

How the results depend on the processing

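All 10 genes kept their direction in bleomycin- against saline-treated *Acta2-tdT* mice and between the bleomycin-treated lines under every alternative run, and 2 and 6 of their values lost the call there, all of *P4ha1* or *Crtap* after scaling. With each mouse left out, 7 to 10 genes were called in the first comparison, where 3 fall under the filter, and 9 to 10 in the second. In *Pdgfra-tdT* mice 0 of the genes that passed the filter were called under every alternative. There the log2 difference of *Pcolce* turned to -0.12 with the scaling, also with all 16 mice in 1 fit, to -0.79 with a sum of 1000000, to -0.053 with a pseudocount of 0.1 and to -0.064 with mouse quality weights. Between the saline-treated lines the difference of *Crtap*, near 0, turned to 0.011 with a pseudocount of 0.1, to 0.087 with weights and to 0.13 without both endothelial libraries, and ranged from -0.22 to 0.13 with each mouse left out. There 2 genes, *P4hb* and *Pcolce*, were called with weights and without both endothelial libraries, as deposited and scaled, and 0 to 2 with each mouse left out. In the interaction 4 genes were called with the scaling, 3 with a sum of 1000000 and 6 with the scaling and both endothelial libraries left out, against 10, and 8 to 10 with each mouse left out, and *P4hb* was also lost with a pseudocount of 0.1 and with no filter. The causes were not tested, beyond the filter's own construction.

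Over all genes, the counts of called genes moved by over 1.5 times as follows, with those of the replicate block given below. In *Acta2-tdT* mice 10848 became 7054 scaled, 6722 with a sum of 1000000, 4876 scaled in 1 fit, 7006 without bleomycin mouse 7 and 6973 without mouse 8. In *Pdgfra-tdT* mice 9 became 2 with no filter, 548 with weights, 15 in 1 fit, 53 in 1 fit scaled, 0 without both endothelial libraries on either scale, and 0 to 69 with each mouse left out. Between the saline-treated lines 237 became 59 with no filter, 2715 with weights, 126 in 1 fit, 2141 without both endothelial libraries (2808 scaled) and 14 to 2141 with each mouse left out. Between the bleomycin-treated lines 9553 became 3998 scaled, 3448 with a sum of 1000000, 4437 scaled in 1 fit, 5685 scaled without both endothelial libraries, 6155 without *Acta2-tdT* mouse 7 and 6111 without mouse 8. In the interaction 6605 became 399 scaled, 1477 with a sum of 1000000, 3463 with a pseudocount of 0.1, 10668 with weights, 2822 scaled without both endothelial libraries, and 3739 to 9166 with each mouse left out.

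Saline-treated mice of both lines share the numbers 1 to 4 and bleomycin-treated mice 5 to 8, but nothing in the labels says that a number marks a shared litter or day. Deviations from the group means correlated across 8153 genes, which are not independent, at 0.095, 0.099, 0.16 and -0.086 for the saline pairs, and at -0.088, 0.071, -0.096 and -0.31 over 11995 genes for the bleomycin pairs. Such weak correlations cannot exclude a shared litter or day, so whether the numbers pair the mice is unknown. With the replicate block 0 of the 10 genes were called between the saline-treated lines (36 of all genes, 91 scaled) and 10 between the bleomycin-treated lines (9379 of all genes), or 8 scaled (3330). FPKM without counts limit what can be said of the lowest values, such as the alpha subunits with saline.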
